A study of Mus musculus with 8 samples.

Results

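Chromatin accessibility after 16 hours of 4-hydroxytamoxifen was compared between thymic group 2 innate lymphoid cells (ILC2s) carrying a retrovirus for E47-ER and ILC2s carrying the same kind of virus for GFP alone. The measurement was ATAC-seq, in which the Tn5 transposase cuts and tags accessible DNA. The E47 group had 2 samples, transduced with E47-ER and GFP, and the GFP group had 2 samples, transduced with GFP. These are 4 of the 8 samples of the series, the other 4 having had 4 hours of tamoxifen. All cells came from the thymus of C57BL/6 mice of the plck-Id1 genotype, in which the Lck proximal promoter drives an Id1 transgene. Cells of both groups thus carried this transgene, and its expression was not measured. All were stimulated and expanded in interleukin 7, interleukin 25, interleukin 33 and a further factor, and sorted for GFP, and all received tamoxifen, so neither group is an untreated one. The authors deposited 1 peak list per group, which joins its 2 samples. Overlapping peaks within a list were joined into regions, 40649 in the E47 list and 52846 in the GFP list. A region that overlapped no region of the other list by 1 bp or more is called E47-only or GFP-only. Its strength is the percentile of its highest −log10 p among the regions of its own list.

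E proteins are basic helix-loop-helix transcription factors that bind E-boxes, sequences of the form CANNTG, as dimers. E47 and E12 are splice products of Tcf3, and Tcf4 and Tcf12 encode the other family members, E2-2 and HEB. Id proteins dimerize with E proteins but lack a DNA-binding region, and so keep E proteins off DNA. High E protein activity favours the T and B cell lineages, whereas innate lymphoid cells depend on Id2. In E47-ER, the hormone-binding part of the estrogen receptor holds the fusion protein inactive until tamoxifen is given.

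The labels leave some limits. Whether the paired samples of a group are separate cultures or animals is not stated, and the files hold no value for a single sample, so no difference between the groups could be tested. Exact binomial intervals at 95% are given in their place and cover counting error only. Sample titles and transduction labels gave the groups used here, whereas the free-text descriptions give replicate 1 of both groups the empty vector and replicate 2 the E47-ER vector. If the descriptions were right, each list would mix both vectors. Tcf3 had 2 regions in each list and Esr1, the estrogen receptor gene, had 6 in each, which does not settle the question. In such bulk samples, a site open in fewer cells and a site less open in each cell cannot be told apart. All 12 ILC2 markers examined had a region in both lists, with 83 regions in the E47 list and 112 in the GFP list. The whole lists held 40649 and 52846 regions, so more regions at these markers in the longer list are no sign of a change at them. Of 10 T cell markers, Cd3d, Cd3e and Dntt had a region in both lists, Rag2 had 1 in the E47 list alone, Rag1 had 2 in the GFP list alone, and Cd3g, Cd4, Cd8a, Cd8b1 and Ptcra had none in either.

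The windows around transcription starts show most directly what a call in a single list looks like on DNA. RefSeq start windows, from 250 bases before a start to 50 after it, were matched for 17492 of 21887 protein-coding genes, 21263 windows in all. An E47-only region overlapped 193 of them and a GFP-only region 508. In the sequences printed, capitals mark E-boxes (CANNTG). They are from RefSeq on GRCm38.p6, the assembly also called mm10, and are written along the gene's own strand. The windows of Arl11, a small GTPase gene (chr14:61309503-61309802, plus strand), and Pgf, the placental growth factor gene (chr12:85177264-85177563, minus strand), are shown because they held strong regions of each class that reached well into the window, at percentiles 52.2 and 65.0. Those of Cd244a, an NK cell receptor gene (chr1:171558943-171559242, plus strand, percentile 44.0), and Zbtb32, a lymphocyte repressor gene (chr7:30592893-30593192, minus strand, percentile 37.6), were picked as lymphocyte genes once the values were known. Tcf7, which encodes the T cell and innate lymphoid factor TCF-1 (chr11:52282965-52283264, minus strand), Il1rl1, the interleukin 33 receptor gene (chr1:40429320-40429619, plus strand), and Il5, an ILC2 cytokine gene (chr11:53720544-53720843, plus strand), are shown as members of the gene groups described further on. Their regions were weak, at percentiles 0.503, 14.8 and 9.91.
Arl11, E47-only: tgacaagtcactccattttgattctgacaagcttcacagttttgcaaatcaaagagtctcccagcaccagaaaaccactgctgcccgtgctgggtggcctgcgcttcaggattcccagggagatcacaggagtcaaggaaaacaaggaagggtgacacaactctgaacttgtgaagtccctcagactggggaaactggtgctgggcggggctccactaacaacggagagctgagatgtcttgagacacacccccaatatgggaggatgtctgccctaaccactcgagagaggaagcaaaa
Cd244a, E47-only: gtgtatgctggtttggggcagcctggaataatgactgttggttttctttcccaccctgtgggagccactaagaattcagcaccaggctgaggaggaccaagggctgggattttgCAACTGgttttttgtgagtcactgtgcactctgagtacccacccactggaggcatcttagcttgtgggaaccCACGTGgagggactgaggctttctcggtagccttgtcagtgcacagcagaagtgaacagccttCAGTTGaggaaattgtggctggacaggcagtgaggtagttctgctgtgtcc
Tcf7, E47-only: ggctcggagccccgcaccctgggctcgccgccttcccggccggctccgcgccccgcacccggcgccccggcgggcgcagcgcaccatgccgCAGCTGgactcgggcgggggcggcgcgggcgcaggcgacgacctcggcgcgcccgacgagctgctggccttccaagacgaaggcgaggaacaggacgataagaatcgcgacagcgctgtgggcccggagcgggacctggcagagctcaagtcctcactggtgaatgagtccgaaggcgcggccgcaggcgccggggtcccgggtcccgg
Pgf, GFP-only: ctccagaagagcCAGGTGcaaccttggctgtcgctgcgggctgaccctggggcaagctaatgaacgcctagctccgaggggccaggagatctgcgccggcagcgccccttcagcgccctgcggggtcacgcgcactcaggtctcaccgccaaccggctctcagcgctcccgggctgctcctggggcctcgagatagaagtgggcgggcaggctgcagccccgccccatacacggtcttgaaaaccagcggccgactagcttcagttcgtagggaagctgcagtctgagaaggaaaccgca
Zbtb32, GFP-only: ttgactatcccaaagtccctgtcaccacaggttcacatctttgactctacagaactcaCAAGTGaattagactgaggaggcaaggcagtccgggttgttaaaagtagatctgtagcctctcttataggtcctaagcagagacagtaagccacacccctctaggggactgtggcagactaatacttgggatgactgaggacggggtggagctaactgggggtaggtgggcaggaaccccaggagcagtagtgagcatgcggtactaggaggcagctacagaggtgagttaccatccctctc
Il1rl1, GFP-only: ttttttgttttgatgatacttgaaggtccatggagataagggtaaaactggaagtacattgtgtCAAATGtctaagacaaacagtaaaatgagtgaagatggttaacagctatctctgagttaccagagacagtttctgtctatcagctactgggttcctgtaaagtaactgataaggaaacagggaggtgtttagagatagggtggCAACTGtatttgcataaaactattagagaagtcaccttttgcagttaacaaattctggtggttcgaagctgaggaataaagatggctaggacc
Il5, GFP-only: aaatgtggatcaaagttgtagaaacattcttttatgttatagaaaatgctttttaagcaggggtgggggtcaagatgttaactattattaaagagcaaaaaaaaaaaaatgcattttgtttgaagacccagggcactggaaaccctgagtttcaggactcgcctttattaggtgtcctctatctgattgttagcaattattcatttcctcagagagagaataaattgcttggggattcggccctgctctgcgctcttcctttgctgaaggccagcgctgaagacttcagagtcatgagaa

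E-boxes stood in windows of both classes. Cd244a held 3 E-boxes, Tcf7 1 and Arl11 0, whereas Il1rl1 held 2, Pgf 1, Zbtb32 1 and Il5 0. The E-box of the Pgf window lay outside its GFP-only region, which covered 199 of the 300 bases. CANNTG was found in 69.4% (62.4 to 75.8) of the 193 windows with an E47-only region and in 64.6% (60.2 to 68.7) of the 508 with a GFP-only region, beside 69.0% of all windows. For CAGCTG the shares were 19.7% (14.3 to 26.0), 18.5% (15.2 to 22.2) and 15.6% in the same order. For CAGGTG and its reverse complement CACCTG they were 18.1% (13.0 to 24.3), 19.9% (16.5 to 23.6) and 19.7%. For each of these E-boxes the intervals of the 2 classes overlapped. Both strands were searched, and CAGCTG and CAGGTG are also counted under CANNTG. Whole windows were searched, although a region could cover a small part of one, such as 4 bases at Tas1r1. The AP-1 letters TGANTCA were in 4.66% (2.15 to 8.67) of windows with an E47-only region and 8.27% (6.02 to 11.01) with a GFP-only region, beside 6.99% of all. Median GC content was 57.7% in the E47-only windows, 59.0% in the GFP-only windows and 62.3% in windows covered in both lists, and the part of base composition in these shares was not tested. Start windows are a small part of the regions, and letters in a window do not show binding.

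At 16 hours, fewer regions were particular to the E47 list than to the longer GFP list as deposited. E47-only regions numbered 4799, which is 11.8% (11.5 to 12.1) of the E47 list, and covered 1.46 Mb. GFP-only regions numbered 16676, which is 31.6% (31.2 to 32.0) of the GFP list, and covered 5.13 Mb. The remaining 35850 E47 regions overlapped 36170 GFP regions. When the GFP list was cut to its 40649 regions of highest −log10 p, E47-only regions came to 7660 (18.8%) and GFP-only regions to 7831 (19.3%), a difference of 171. With lists of equal length the numbers of the 2 classes can differ only where 1 region overlaps several (32989 E47 regions overlapped 32818 GFP regions), so their closeness follows from the cut and is no result. The cut removed 12197 GFP regions, of which 8845 (72.5%) had been GFP-only, and it made 2861 further E47 regions E47-only. Sequencing depth and the likeness of replicates are not in the files, and their part in list length was not tested.

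Regions called by a single vector were weak, narrow and often close to a region of the other list. The median strength percentile was 14.4 for E47-only and 21.5 for GFP-only regions, against 55.6 and 65.2 for regions that overlapped, in the E47 and GFP lists. Median widths were 250 bp and 261 bp, against 451 bp and 469 bp. At like strength they were not narrower throughout. E47-only regions had the larger median width in each step from percentile 20 to 80, and GFP-only regions from percentile 10 to 60. Between percentiles 50 and 60 it was 468 bp for E47-only and 382 bp for GFP-only regions, against 411 bp and 377 bp for overlapping ones. The share of a list that was list-only went down with strength in both lists. Below percentile 10 it was 44.6% of E47 regions and 80.4% of GFP regions, and between percentiles 50 and 60 it was 3.27% and 21.5%. Above percentile 50 there were 223 E47-only regions (1.10% of 20324; 0.959 to 1.25) and 1786 GFP-only regions (6.76% of 26423; 6.46 to 7.07). Above percentile 80 there were 0 of 8130 E47 regions, with an upper limit of 0.0454%, and 8 of 10569 GFP regions. Strong sites were thus nearly all called under both vectors. The nearest region of the other list lay within 1 kb of 32.9% of E47-only regions and of 23.7% of GFP-only regions.

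**Figure D1:**
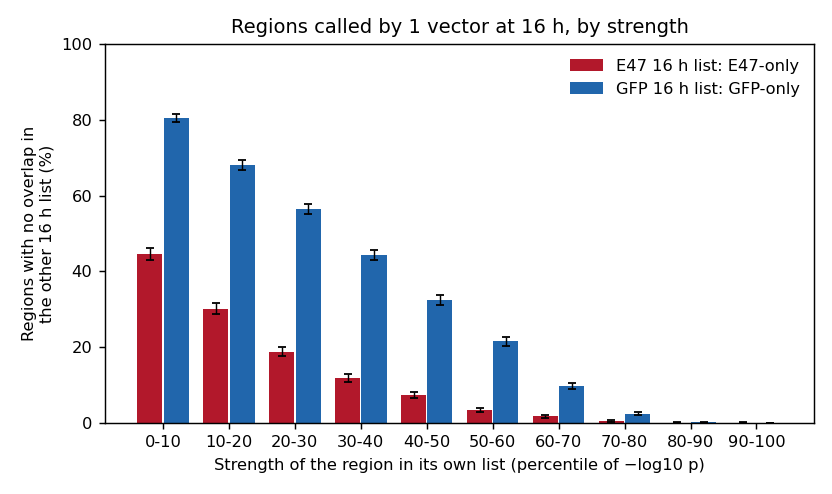
Share of regions with no overlap in the other 16 h list (y axis, %), by strength within the own list (x axis, in steps of 10 percentiles of −log10 p), for the E47 list (red) and the GFP list (blue), with exact 95% intervals for counting error. Shares go down from 44.6% (E47) and 80.4% (GFP) in the weakest step to 0 in the strongest step of both lists.

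The strongest E47-only regions included a site at a cytokine gene of type 3 lymphoid cells. Il22, which encodes interleukin 22, had its strongest E47-only region 6125 bp from the gene (chr10:118216017-118216644), at percentile 76.4 with a fold enrichment of 15.4 in the E47 list. Fold enrichment is the authors' value over local background and belongs to its own list. Il22 had 3 regions in the E47 list and 1 in the GFP list. Iltifb, a near-identical copy of Il22, had an E47-only region of percentile 73.1, 6371 bp from it, so reads of this pair may be shared and both values are uncertain. Il22 is among 5 ILC3 markers, all with a region in both lists, 11 regions in the E47 list and 8 in the GFP list. No start window of these 5 was covered in either list, and the part of ILC3 cells in these values was not tested.

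Other genes nearest to the 15 strongest E47-only regions reported here had varied roles. The region at the top, at percentile 79.8 and fold 15.6, lay 65104 bp from Oxsm, a mitochondrial fatty acid synthesis gene (chr14:16173270-16174242). Prps1l1, a nucleotide synthesis gene, had its region 4080 bp away at percentile 79.0. Ppm1h, a protein phosphatase gene, had the region of highest fold among those named for a gene, 17.6, at 25296 bp from the gene. Adgre5, which encodes the leukocyte adhesion receptor CD97, and Msh4, a meiotic recombination gene, were the nearest genes of the 2 among these 15 regions that both 4 h lists also held. Tha1 (threonine aldolase) and Sytl3 (vesicle traffic) held their regions inside the gene, at percentiles 72.8 and 72.4. Lrrc28, Cpn2, Rpl11 and Chrna9 were the nearest genes of the rest, at 12822, 28859, 28530 and 5461 bp, and 1 region (chr2:46370959-46371401, fold 18.6) had no gene within 100 kb. The last of the 15, at percentile 71.9 and fold 13.6, lay 12730 bp from Ccr9, which encodes the thymus and gut homing receptor CCR9. Ccr9 had a second E47-only region 10296 bp away at percentile 46.7.

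Among the 15 strongest GFP-only regions reported here was a site inside Tcf4, which encodes the E protein E2-2 (chr18:69547354-69548208), at percentile 80.5 and fold 18.9 in the GFP list. The strongest lay 17341 bp from Rgs21, a G protein signalling regulator gene (chr1:144501903-144502565), at percentile 83.4 and fold 19.5, and Rgs21 was also nearest to a weaker region of the 15, at percentile 78.5. Arhgap18, a GTPase-activating protein gene, held its region inside the gene at percentile 82.8 and fold 22.8. Dpp4, which encodes the peptidase CD26 of lymphocytes, held its own at percentile 81.3 and fold 21.7. Dgkz, a diacylglycerol kinase gene that limits antigen receptor signalling in T cells, had a region inside the gene at percentile 80.04. Cep76 (centrosome), Slc35d1 (nucleotide sugar transport), Plcb1 (phospholipase C), Frmd4a (cell polarity scaffold) and Cnot1 (messenger RNA deadenylation) also held theirs inside the gene. Sft2d2, Edaradd and Mysm1, the last a histone deubiquitinase gene, were nearest to regions at 1242, 2593 and 22416 bp. Another of the 15 had no gene within 100 kb.

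The 4 h lists, which the rule did not use, separated the strong regions of the 2 classes. Of these 15 E47-only regions at 16 h, 13 were in the E47 list and not in the GFP list at 4 h. Of these 15 GFP-only regions, 13 were in both 4 h lists. In those 13, the percentile at 4 h was lower in the E47 list than in the GFP list, for example 38.0 and 71.0 at Cep76, 45.9 and 72.4 at Arhgap18, and 59.2 and 65.0 at Tcf4. The exceptions were the weaker region named for Rgs21 and the region in Slc35d1, which the E47 list lacked at 4 h too. Percentiles of lists of different lengths (49811 regions for E47 and 42665 for GFP at 4 h) are given as descriptions, and no change over time was tested.

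**Figure D2:**
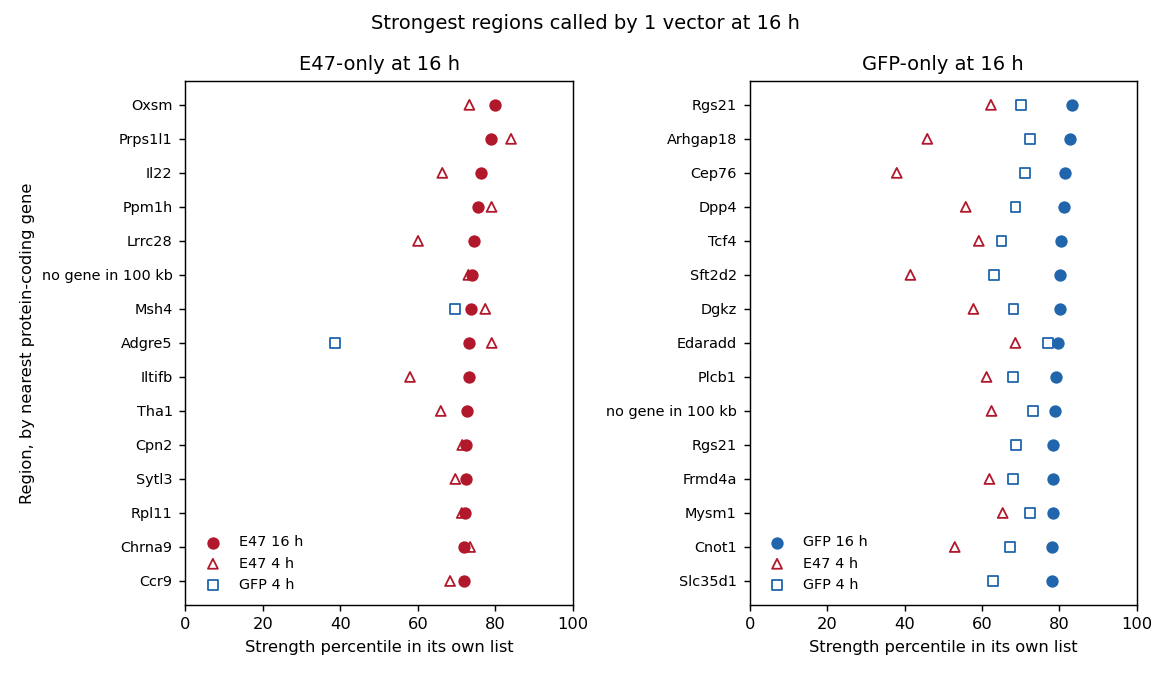
Strength percentile in its own list (x axis) of the 15 strongest E47-only (left) and GFP-only (right) regions reported at 16 h, each row named by the nearest protein-coding gene. Filled circles are the 16 h list, open triangles the E47 4 h list and open squares the GFP 4 h list, and a missing mark is a region not called. Squares are missing from 13 of 15 rows on the left, while 13 of 15 rows on the right carry both open marks.

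Over all regions of a class the calls at 4 h were more mixed than among the strong ones. Of all 4799 E47-only regions, 45.8% (44.4 to 47.2) were in the E47 list alone at 4 h, 20.4% in both lists, 4.86% in the GFP list alone and 28.9% in neither. Of all 16676 GFP-only regions, 17.8% (17.2 to 18.4) were in the E47 list alone at 4 h, 26.2% in both, 17.3% in the GFP list alone and 38.7% (38.0 to 39.5) in neither. Among the 223 E47-only regions above percentile 50, 148 were in the E47 4 h list alone and 68 in both. Among the 1786 GFP-only regions above percentile 50, 1267 were in both 4 h lists, 370 in the GFP list alone and 85 in the E47 list alone. Of the 100 strongest of each class, 73 E47-only regions were in the E47 4 h list alone and 27 in both, while 8 GFP-only regions were in the GFP 4 h list alone and 92 in both. Of overlapping regions above percentile 50, 98.6% in the GFP list and 99.1% in the E47 list were in both 4 h lists. In the E47 list, 0.905% of them were in the E47 4 h list alone. A call in both 4 h lists was thus usual for strong GFP-only and overlapping regions, but not for strong E47-only regions. Most strong E47-only sites were sites that the E47 list alone held at 4 h. Most strong GFP-only sites were missing from the E47 16 h list alone among the 4 lists. That list was also the shortest of the 4, and the part of list length was not tested.

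**Figure D3:**
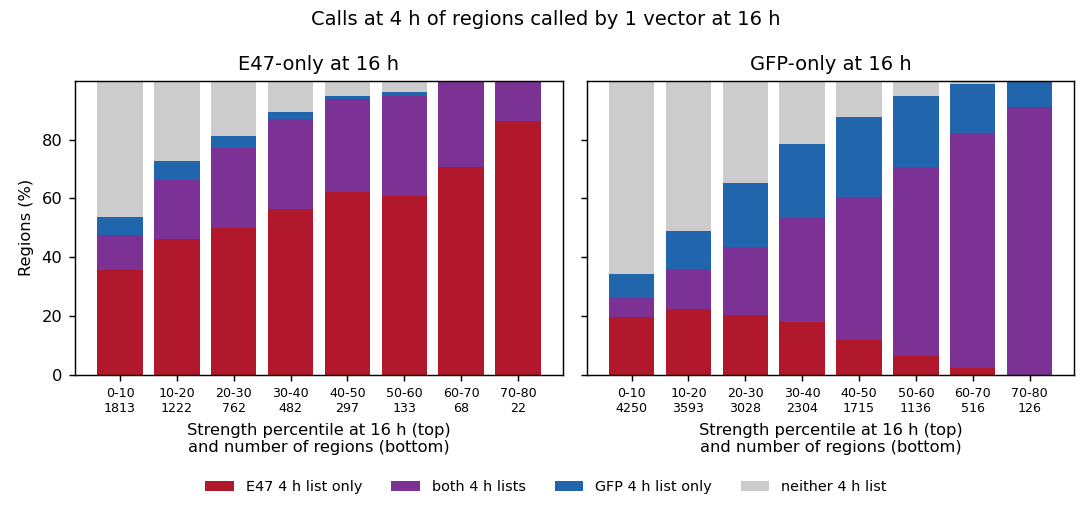
Share of E47-only (left) and GFP-only (right) regions at 16 h (y axis, %) that were called at 4 h in the E47 list only (red), both lists (purple), the GFP list only (blue) or neither (grey), by strength percentile at 16 h (x axis, with the number of regions under each bar). In the strongest bars red makes up most of the left panel, with 22 regions in its last bar, and purple most of the right panel, with 126 regions in its last bar.

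Regions called by a single vector lay away from gene ends. The strongest summit lay 1 kb or less from a gene end in 13.6% (12.6 to 14.6) of E47-only and 11.5% (11.04 to 12.0) of GFP-only regions, against 35.1% and 35.4% of overlapping regions in the E47 and GFP lists. Inside a gene and over 1 kb from its ends lay 50.2% of E47-only and 53.0% of GFP-only regions, against 38.6% and 38.4% of overlapping ones. Over 100 kb from any gene lay 5.61% and 6.06%, against 3.51% in each list. At equal list length the share at gene ends was 14.8% (14.0 to 15.6) for E47-only and 8.98% (8.35 to 9.63) for GFP-only regions. Weak regions are nearer to the calling threshold, and the part of strength in these shares was not tested.

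**Figure D4:**
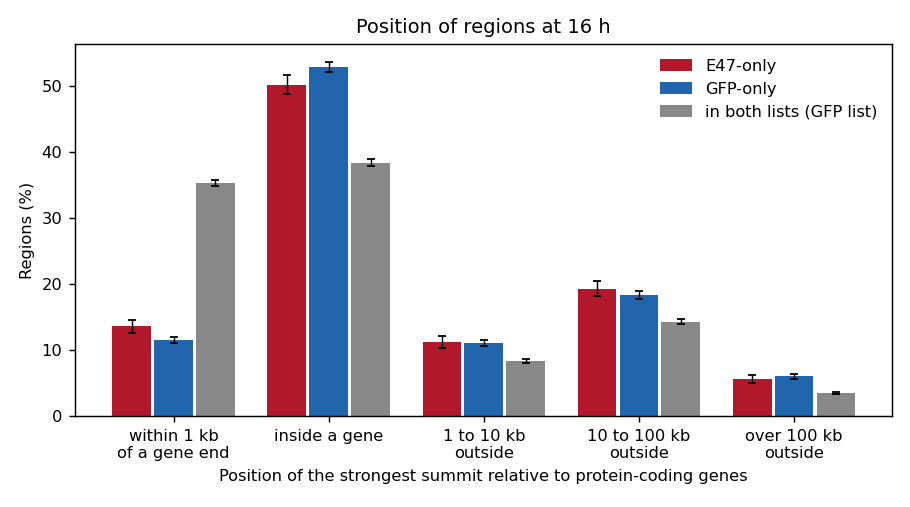
Position of the strongest summit of each region relative to protein-coding genes (x axis) as a share of its class (y axis, %), for E47-only (red), GFP-only (blue) and overlapping regions of the GFP list (grey), with exact 95% intervals for counting error. The grey bar at gene ends stands at 35.4%, above 13.6% for E47-only and 11.5% for GFP-only regions.

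Regions were then assigned to the nearest protein-coding gene within 100 kb, which is a label of position and no proof of regulation. Of 14733 genes with a region in either list, 3274 (22.2%) had an E47-only region and 7660 (52%) a GFP-only region. At equal list length these were 4717 (32%) and 4564 (31%). Genes with many regions have more chances of either, so the lists of genes are described by their regions. Over all genes, 11.6% of E47 regions were E47-only and 31.0% of GFP regions GFP-only, and at equal length 18.6% and 18.7%. Regions near a gene share its locus, some genes are on several lists, and no list was tested.

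**Figure D5:**
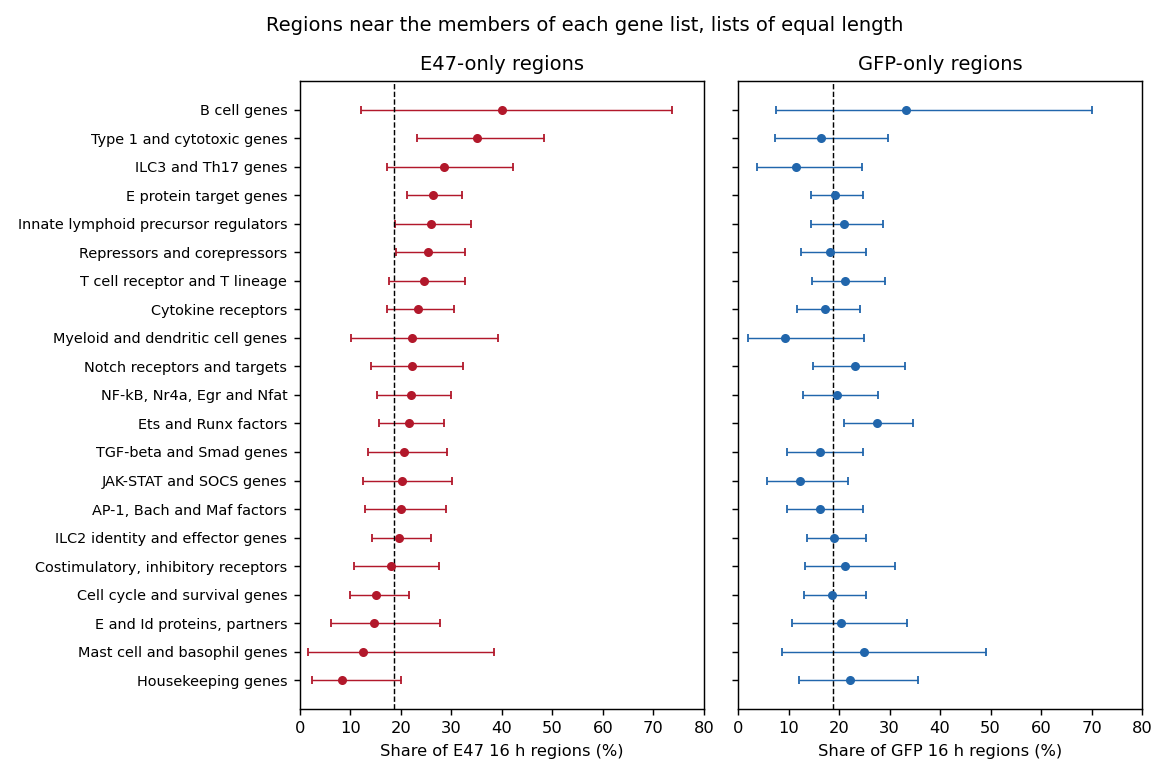
Share of E47 16 h regions that were E47-only (left, red) and of GFP 16 h regions that were GFP-only (right, blue) near the members of 21 gene lists (rows), at equal list length, with exact 95% intervals for counting error. Dashed lines mark all protein-coding genes, at 18.6% and 18.7%; type 1 and cytotoxic genes stand at 35.0% on the left and Ets and Runx factors at 27.4% on the right.

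At the genes of E proteins and Id proteins, shares of list-only regions were near those over all genes. Of the 48 E47 regions near these 14 genes, 6 (12.5%) were E47-only, and of the 67 GFP regions 23 (34.3%) were GFP-only, beside 11.6% and 31.0% over all genes. Tcf4 had 5 regions in the E47 list and 12 in the GFP list, with 0 E47-only and 7 GFP-only. Tcf12, the HEB gene, had 5 and 10 regions, with 0 E47-only and 5 GFP-only, the strongest at percentile 45.8. At equal length 3 GFP-only regions at Tcf4 and 2 at Tcf12 were left. Tcf3 itself had 2 regions in each list, all overlapping. Id2, the Id gene that innate lymphoid cells require, had 11 and 13 regions with 0 E47-only and 1 GFP-only, at percentile 16.3. Id3, a common E protein target, had 1 E47-only region (percentile 35.4) and 2 GFP-only regions. Id1, which all cells also carry as a transgene, had 3 and 4 regions with 0 E47-only and 1 GFP-only. Of the 6 E47-only regions near the 14 genes, 4 were at Cbfa2t3. It encodes ETO2, a corepressor that joins E protein complexes, and had 5 regions in the E47 list and 1 in the GFP list, 4 of them E47-only. Those 4 lay 1523 to 13658 bp from the gene, the strongest at percentile 63.1 and fold 6.77 (chr8:122701887-122702907), and the E47 4 h list alone held all 4 places.

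Known E protein target genes had 54 E47-only among 262 E47 regions (20.6%; 15.9 to 26.0) and 93 GFP-only among 304 GFP regions (30.6%; 25.5 to 36.1). Over all genes these shares were 11.6% and 31.0%. At equal length the shares were 26.3% (21.1 to 32.1) and 19.2% (14.4 to 24.8), beside 18.6% and 18.7% over all genes. Among 31 members with a region, E47-only regions were at 22 and GFP-only regions at 23, and at equal length 23 and 18. Over all genes with a region, E47-only regions were at 22.2% and GFP-only regions at 52%, and at equal length 32% and 31%. Members with many regions have more chances of both classes, and this was not corrected for in the member counts. The list was put together with earlier results of these data known and includes Ppm1h, so its share is no independent evidence. Ppm1h alone had 8 E47-only and 10 GFP-only regions. Ikzf1, which encodes the lymphoid factor Ikaros, had 23 regions in each list, with 5 E47-only and 6 GFP-only in the full lists and 9 and 2 at equal length. Ets1, an Ets-family factor gene of lymphocytes, had 19 regions in each list, with 8 E47-only and 2 GFP-only at equal length. Jdp2, an AP-1 repressor gene, had 2 E47-only and 5 GFP-only regions, and 3 and 4 at equal length.

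ILC2 genes had shares of list-only regions near those over all genes. Of 30 members 29 had a region. In the full lists 24 of 193 E47 regions (12.4%) were E47-only and 77 of 243 GFP regions (31.7%) GFP-only, beside 11.6% and 31.0% over all genes. At equal length the shares were 19.7% and 19.05%, beside 18.6% and 18.7%. Gata3, the master factor of ILC2s, had 8 regions in the E47 list and 12 in the GFP list, with 1 E47-only and 5 GFP-only, the strongest at percentile 43.6 and 92510 bp from the gene, and at equal length 1 and 2. Rora, the gene of the ILC2 factor RORα, had 14 and 21 regions, with 5 E47-only and 12 GFP-only, and at equal length 7 and 4. Among ILC2 receptors, Il2ra (8 and 11 regions), Il7r (6 and 9) and Klrg1 (9 and 14) had no E47-only region and 4, 3 and 4 GFP-only regions, of which 3, 1 and 4 were left at equal length. Il1rl1 had 9 regions in each list with 2 E47-only and 2 GFP-only. The cytokine gene Il13 had 6 regions in each list, all overlapping, and Il5 had 4 and 5, with 1 GFP-only.

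Innate lymphoid precursor and T lineage genes were divided between the directions. Tcf7 had 8 regions in the E47 list and 4 in the GFP list, with 4 E47-only and 0 GFP-only, the strongest 35194 bp away at percentile 47.8 and fold 8.89. The opposite pattern was seen at Tox, which encodes a nuclear factor of innate lymphoid and T cell development, with 4 and 13 regions, 1 E47-only and 10 GFP-only. Its strongest GFP-only regions stood at percentiles 63.2, 61.5 and 54.4, and at equal length 6 were left. Notch1, which encodes the receptor that drives T cell commitment, had 4 and 8 regions with 0 E47-only and 4 GFP-only, all 4 left at equal length, whereas the Notch target Hes1 had 9 and 8 regions with 3 E47-only and 2 GFP-only. Lck, a T cell kinase gene, had 4 and 2 regions with 2 E47-only. The transgene carries Lck promoter sequence in cells of both groups, so reads from it and from Lck cannot be told apart. Near 30 T lineage genes, 28 of 138 E47 regions (20.3%) were E47-only and 55 of 165 GFP regions (33.3%) GFP-only, beside 11.6% and 31.0% over all genes. At equal length these were 34 of 138 (24.6%) and 28 of 132 (21.2%), beside 18.6% and 18.7%. Bcl11b, a factor of T cells and ILC2s, had 2 E47-only and 5 GFP-only regions and 2 of each at equal length. Zbtb16, the PLZF gene of innate lymphoid precursors, had 1 and 2 in the full lists and 1 and 0 at equal length.

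Genes of ILC3 and Th17 cells and of type 1 and cytotoxic cells had the highest E47-only shares at equal list length among the lists of over 50 E47 regions. In the full lists, E47-only shares were 23.3% for type 1 and cytotoxic genes and 19.6% for ILC3 and Th17 genes. E protein targets stood at 20.6%, T lineage genes at 20.3% and all genes at 11.6%. GFP-only shares in the full lists were 26.5% for type 1 and cytotoxic genes and 27.4% for ILC3 and Th17 genes, beside 31.0% over all genes. For ILC3 and Th17 genes, 16 of 56 E47 regions (28.6%; 17.3 to 42.2) were E47-only and 5 of 44 GFP regions (11.4%; 3.79 to 24.6) GFP-only at equal length. For type 1 and cytotoxic genes these were 21 of 60 (35.0%; 23.1 to 48.4) and 8 of 49 (16.3%; 7.32 to 29.7). Over all genes the shares at equal length were 18.6% and 18.7%. All of these intervals but that of E47-only regions at type 1 and cytotoxic genes included the value over all genes. Ifng, which encodes interferon γ, had 7 regions in the E47 list and 5 in the GFP list, with 4 E47-only and 2 GFP-only, the strongest E47-only at percentile 49.1 and 21677 bp away. Ifng and Il22 are neighbours on chromosome 10, so the lists share a locus. Fasl, the Fas ligand gene, had an E47-only region 1429 bp away at percentile 61.7 and fold 15.5 (chr1:161779050-161779467), in the E47 list alone at 4 h. Il12rb1 and Il12rb2, interleukin 12 receptor chain genes, lay the other way in the full lists, each with 1 E47-only and 3 GFP-only regions. At equal length Il12rb1 had 1 of each and Il12rb2 had 1 and 2. Lif, a cytokine gene, had 11 and 8 regions with 3 E47-only and 1 GFP-only, whereas Ahr, the aryl hydrocarbon receptor gene, had 8 and 12 with 0 and 3, and 1 of each at equal length. Of 6 NK and ILC1 markers, 4 had a region in each list, with 17 regions in each, and their part was not tested.

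Cytokine signalling genes differed by family member. Near 32 cytokine receptor genes, 31 of 171 E47 regions (18.1%) were E47-only and 53 of 190 GFP regions (27.9%) GFP-only, beside 11.6% and 31.0% over all genes. At equal length these were 40 of 171 (23.4%) and 26 of 151 (17.2%), beside 18.6% and 18.7%. Il10rb, a shared chain of the receptors for interleukin 10 and interleukin 22, had an E47-only region at percentile 68.5 and 22525 bp away (chr16:91447680-91448657) and no GFP-only region. Ifngr1, an interferon γ receptor chain gene, had 3 E47-only and 1 GFP-only. The TGF-β receptor gene Tgfbr1 had 6 and 4 regions with 2 E47-only and 0 GFP-only, while Tgfbr2 had 21 in each list with 6 and 6 in the full lists and 8 and 3 at equal length. Csf2rb, the common β chain gene of the receptors for interleukin 3, interleukin 5 and GM-CSF, lay the other way, with 2 and 6 regions, 0 E47-only and 4 GFP-only, the strongest at percentile 57.9. Il4ra, the interleukin 4 receptor gene, had 10 and 15 regions with 0 and 5, and 0 and 3 at equal length. Among feedback inhibitors, Socs3 had 5 and 2 regions with 2 E47-only and 0 GFP-only, and Socs2 had 5 and 8 with 0 and 3, and 0 and 1 at equal length.

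Ets and Runx factor genes had the highest GFP-only share among lists of over 100 GFP regions. In the full lists 95 of 242 GFP regions (39.3%; 33.1 to 45.7) were GFP-only, and at equal length 48 of 175 (27.4%; 21.0 to 34.7). Over all genes the GFP-only shares were 31.0% and 18.7%. Of 167 E47 regions, 21 (12.6%) were E47-only in the full lists and 36 (21.6%; 15.6 to 28.6) at equal length. Over all genes the E47-only shares were 11.6% and 18.6%. Fli1, a blood cell Ets factor gene, had 15 regions in the E47 list and 28 in the GFP list, with 2 E47-only and 14 GFP-only, of which 5 lay above percentile 50. Runx1 had 20 and 32 regions with 1 and 12, Runx2 13 and 28 with 0 and 13, and Etv6, an Ets repressor gene, 18 and 32 with 2 and 17. At equal length Fli1 had 3 E47-only and 10 GFP-only regions, Runx1 3 and 7, Runx2 1 and 5, and Etv6 4 and 8. Runx3, a factor of cytotoxic and innate lymphocytes, did not share this, with 17 and 18 regions, 3 E47-only and 5 GFP-only, and at equal length 6 and 1. Among repressors, Prdm1, the Blimp-1 gene, had 3 E47-only regions, the strongest at percentile 50.7 in neither 4 h list, and 5 GFP-only, but at equal length 4 and 2.

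Genes with at least 4 list-only regions of a direction at equal length mostly had some of the other direction too. At least 4 E47-only regions were found at 246 genes, of which 51 had no GFP-only region, and at least 4 GFP-only regions at 295 genes, of which 74 had no E47-only region. The most E47-only regions were at Clec16a (14), an autophagy regulator gene, Mgat5 (12), an N-glycan branching enzyme gene, Ppm1h (10) and Sh3kbp1 (10), an adaptor gene, then Wwox, Ikzf1, Sla, Diaph3, Itpr2 and Xylt1 (8 or 9 each). All of these but Sla also had GFP-only regions at equal length, from 1 at Xylt1 to 7 at Wwox. In the full lists Ppm1h, Sh3kbp1, Wwox, Ikzf1 and Itpr2 had more GFP-only than E47-only regions, and the others fewer. Sla, which encodes an adaptor that dampens antigen receptor signalling, had 8 E47-only and 0 GFP-only regions at equal length. In the full lists it had 13 regions in the E47 list and 7 in the GFP list, and its strongest E47-only region was at percentile 68.4 and fold 10.1 inside the gene (chr15:66789045-66789645). The most GFP-only regions were at Slc24a3 (14), a cation exchanger gene, Atxn1 (11), Elmo1 (11), a Rac activator gene, and Fli1, Rftn1 and Zfp407 (10 each), then Rabgap1l, Ankrd44, Dlg2 and Pde4d (8 or 9 each). All of these but Dlg2 also had E47-only regions at equal length, from 2 at Zfp407 to 6 at Atxn1. Dlg2, a scaffold gene, had 8 GFP-only and 0 E47-only. Genes tied at 8 were ordered by their strongest region, and Ets1, Tgfbr2 and Amph for E47-only regions and Ywhaz, Fhit, Etv6 and Nfkb1 for GFP-only regions also had 8. Several of these genes are long, and the part of gene length was not tested.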

How the data were processed

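The submitters' processing notes list MACS2, Bowtie2, DiffBind and cutadapt, and build mm10; versions and settings are not given there. The deposited narrowPeak lists, 1 per group and called conservative by irreproducible discovery rate (IDR) in the authors' naming, give for each peak a score, a fold enrichment (ratio) over background, and −log10 of p and q. The authors' values were used only to rank, filter or describe peaks within a list. Depth per sample is not known. Labels call the molecule RNA, although the assay is ATAC-seq on DNA.

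Overlapping lines were merged (109772 E47 lines and 134423 GFP lines), and regions were compared by 1 bp overlap. No test across groups was possible, and shares carry exact Clopper-Pearson intervals at 95%. Genes, start windows and microRNAs came from RefSeq tables of GRCm38.p6, and a region was assigned to the nearest gene body within 100 kb of its strongest summit. Some genes are not reported here; named regions, markers and gene lists leave them out. The members and the 21 gene lists were chosen with earlier results of these data known. Named genes are those nearest to the 15 strongest list-only regions per direction, the 10 genes per direction with most list-only regions at equal length, up to 4 members per list and direction, set regulators and cytokine genes, and up to 10 start windows per direction above the median strength; others are said to be chosen after their values were seen. The microRNA genes were also chosen so. Alternatives were equal list length, overlap, merging, thresholds, summits, autosomes and distances. The code was tested on simulated data, where all classes of 20000 regions were recovered (100%). Software was matplotlib 3.10.9, scipy 1.17.1, numpy 2.4.6 and Python 3.11.15.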

Additional observations from a re-analysis of the deposited data

Results flagged for a closer look

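The balance of E47-only minus GFP-only regions had opposite signs at the 2 times, 7133 at 4 h and -11877 at 16 h. At 4 h the E47 list was the longer, and at 16 h the GFP list was. No test of this difference was possible with 1 list per group, so it was not tested, and the length of the lists and the time cannot be told apart in the full lists.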

How the results depend on the processing

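Requiring −log10 q of at least 2, autosomes only, or overlap by 50% of the shorter region left the 7 values of the 16 h comparison near those reported. At equal list length, E47-only and GFP-only regions numbered 7660 and 7831 (balance -171), and above the median strength 223 and 1786 (-1563). As single summits within 150 bp they numbered 14402 and 38199 (-23797). The share at gene ends was 14.8% for E47-only and 8.98% for GFP-only regions at equal length, 8.90% and 8.03% with lines up to 200 bp apart merged, 6.73% and 5.10% above the median, 22.3% and 16.0% for summits, 7.79% and 6.30% within 500 bp, and 19.8% and 17.3% within 2 kb. Median percentiles were 15.5 for E47-only and 19.5 for GFP-only regions at equal length (within the shortened list), 13.6 and 20.6 with 200 bp merging, 57.8 and 57.2 above the median, and 20.3 and 27.7 for summits. At equal length, a choice added after the data were seen for this result, 70.7% of E47-only regions were in the E47 4 h list and 32.6% in the GFP 4 h list, against 66.2% and 25.3% in the full lists. For GFP-only regions these were 57.8% and 67.6%, against 44.0% and 43.5%. Members with an E47-only region stayed within 1.5 times of the reported count in 18 of 21 gene lists at equal length and 19 within 5 kb of the gene, and members with a GFP-only region in 12 and 19. Above the median, 1 and 0 lists did. Except where a setting removes regions by construction, the cause of these differences was not tested. No paired analysis was possible because each group had 1 peak list made from its 2 samples, and for the same reason no replicate was left out. Read depth is not known, and it limits every count.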

Other observations

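Few microRNA genes lay in regions called by a single vector. Of 1005 RefSeq hairpins on GRCm38.p6, 72 were covered in both 16 h lists, 6 in the E47 list alone and 10 in the GFP list alone. E47-only regions held 4 hairpins (Mir155, Mir301b, Mir3075 and Mir6973a). GFP-only regions held 7, among them Mir9-1 and, in the same region on the other strand, Gm25641. Mir155, a microRNA gene of activated lymphocytes, lay on the plus strand (chr16:84714140-84714204) in an E47-only region of percentile 13.7 and fold 5.12 that neither 4 h list held. Mir9-1, known from neurons, lay on the plus strand (chr3:88215598-88215686) in a GFP-only region of percentile 44.5 and fold 9.004 that both 4 h lists held. Accessibility at a hairpin does not measure the mature microRNA. The mature sequences of both, with seed bases in capitals, show which seeds these loci encode.
miR-155-5p: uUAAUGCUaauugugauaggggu
miR-155-3p: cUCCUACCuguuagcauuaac
miR-9-5p: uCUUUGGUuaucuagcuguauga
miR-9-3p: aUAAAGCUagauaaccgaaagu

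Lists of other cell types and of general genes are read against 11.6% E47-only and 31.0% GFP-only over all genes. Housekeeping genes had 1 E47-only region among 48 E47 regions (2.08%), at Gusb (percentile 2.01), and 20 GFP-only among 66 GFP regions (30.3%), 12 of them at Ywhaz, a 14-3-3 protein gene with 14 E47 regions and 24 GFP regions. Mast cell and basophil genes had 0 of 16 (0%; 0 to 20.6) and 11 of 28 (39.3%; 21.5 to 59.4), with 5 GFP-only regions at Mitf. B cell genes had 3 of 10 (30%; 6.67 to 65.2) and 9 of 17 (52.9%; 27.8 to 77.0), with wide intervals on few regions. They include Bank1, whose start window held an E47-only region of percentile 29.0, and Pou2af1, whose start window held a GFP-only region of percentile 34.05. Myeloid and dendritic cell genes had 6 of 36 (16.7%) and 9 of 41 (21.95%). Cell cycle and survival genes had 16 of 159 (10.1%) and 60 of 208 (28.8%), with 8 GFP-only regions and 1 E47-only region at Rb1, the retinoblastoma gene. Costimulatory and inhibitory receptor genes had 10 of 89 (11.2%) and 36 of 114 (31.6%), with 2 E47-only and 0 GFP-only regions at Pdcd1, the PD-1 gene.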
